A study of Mus musculus with 24 samples.

Results

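The VEGF and angiopoietin ligands and receptors examined here were the 10 genes Vegfa, Vegfb, Vegfc, Angpt1 and Angpt2, which encode secreted ligands, and Flt1, Kdr, Flt4, Tek and Tie1, which encode receptor tyrosine kinases. They were taken by gene symbol and not by a filter on their values, though with earlier results of these data known. Each of the 10 had 1 probe set with that symbol, and 10 of 10 were measured among 19505 genes in all. Their levels were read in whole lungs of mice killed at 6 months of age. The groups were Marfan mice given sildenafil (5 arrays, numbered 8 to 12), Marfan mice given vehicle (5 arrays, 20 to 24), wild-type mice given sildenafil (4 arrays, 1, 4, 5 and 6) and wild-type mice given vehicle (6 arrays, 13 to 18). Marfan syndrome is a heritable connective tissue disorder that also affects the lung. Sildenafil, an inhibitor of the cyclic GMP phosphodiesterase PDE5, was given in drinking water from 6 weeks of age until death, per the labels. The labels do not name the Marfan allele, the strain or the sex of the mice.

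VEGF-A is the main growth and survival signal of blood vessel endothelium, and in the lung much of it is made by alveolar epithelium. It binds the signalling receptor VEGFR2 (Kdr) and the high-affinity receptor VEGFR1 (Flt1), which can act as a trap that keeps VEGF-A from VEGFR2. VEGF-B binds VEGFR1, and VEGF-C binds VEGFR3 (Flt4), the receptor best known from lymphatic endothelium. Angiopoietin-1, made mostly by cells around the vessel, activates the endothelial receptor TIE2 (Tek) and favours quiet, tight vessels. Angiopoietin-2, released by endothelium itself, competes for TIE2, and TIE1 is a partner of TIE2 with no established ligand of its own.

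Promoter sequence is shown for the receptor genes whose levels moved together from array to array (Kdr, Flt1 and Tie1) and for Vegfb, the ligand gene that stood opposite to them on array 9, described further on. Entries in the RefSeq promoter table of build GRCm38.p6 were matched by symbol for 8 of the 10 genes, in 9 windows, because Vegfa had a pair of start sites. Each window below holds the 250 bases before the annotated start, read 5′ to 3′ on the gene's own strand. All 4 genes lie on the minus strand: Kdr at chr5:75978456-75978705, Flt1 at chr5:147726012-147726261, Tie1 at chr4:118489850-118490099 and Vegfb at chr19:6987652-6987901. Capitals mark the ETS core, GGAA or TTCC on the strand shown, the core bound by ETS factors such as ERG that act in endothelium.
Kdr: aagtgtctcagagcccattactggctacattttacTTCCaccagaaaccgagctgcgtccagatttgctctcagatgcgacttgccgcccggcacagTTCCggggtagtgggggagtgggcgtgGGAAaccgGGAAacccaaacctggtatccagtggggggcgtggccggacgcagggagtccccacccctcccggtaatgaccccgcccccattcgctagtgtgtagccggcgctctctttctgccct
Flt1: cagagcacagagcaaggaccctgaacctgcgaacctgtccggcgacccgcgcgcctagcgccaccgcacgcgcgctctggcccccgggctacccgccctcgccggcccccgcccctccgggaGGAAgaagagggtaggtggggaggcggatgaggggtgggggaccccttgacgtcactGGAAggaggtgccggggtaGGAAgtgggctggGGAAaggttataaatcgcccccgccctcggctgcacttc
Tie1: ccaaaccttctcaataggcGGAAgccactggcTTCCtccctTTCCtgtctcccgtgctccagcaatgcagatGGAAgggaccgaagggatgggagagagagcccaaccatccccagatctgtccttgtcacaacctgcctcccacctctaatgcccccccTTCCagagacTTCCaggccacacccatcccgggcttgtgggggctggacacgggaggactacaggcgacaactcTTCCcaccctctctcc
Vegfb: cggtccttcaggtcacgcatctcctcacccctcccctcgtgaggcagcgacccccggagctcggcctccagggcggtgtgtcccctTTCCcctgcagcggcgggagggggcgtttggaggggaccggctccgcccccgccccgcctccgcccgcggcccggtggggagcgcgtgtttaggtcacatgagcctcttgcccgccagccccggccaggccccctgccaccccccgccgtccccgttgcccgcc

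The Tie1 window held 7 ETS cores, a number reached by 3.82% of 32851 promoter windows of the same length. The Kdr and Flt1 windows held 4 each (33.4% of windows hold as many) and the Vegfb window held 1 (93.4% hold at least that). The number did not part receptors from ligands: of the windows not shown, those of Tek and Flt4 held 2 each (76.8%), those of Vegfa 6 (8.69%) and 2, and that of Vegfc 1. GC boxes, GGGCGG or CCGCCC, numbered 4 in the Vegfb window (4.09% hold as many), 3 in Flt1 (8.47%), 2 in Kdr (16.7%) and 0 in Tie1. The GATA core, GATA or TATC, occurred 1 time in Kdr and 0 times in the other windows shown (53.6% of all windows hold at least 1). The hypoxia-inducible factor core, ACGTG or CACGT, was in 0 of the windows shown and in 16.6% of all windows. Matches were counted on both strands, overlaps of different motifs were allowed, and a match describes letters only.

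All 10 genes were expressed above background on every array. Their deposited values exceeded the median of 23 background probe sets of the same array by 2.48 log2 units at the least (Flt4) and by 8.02 at the most (Kdr), and each of the 10 was brighter on average than the median gene. Markers of lung tissue were checked more loosely: each of the 12 measured pan-endothelial and 10 alveolar type 2 markers lay above background on at least 1 array. Before normalization the array medians ran from 5.73 to 6.45 log2 units in the Marfan sildenafil group, from 5.80 to 6.13 in Marfan vehicle, from 5.87 to 6.19 in wild-type sildenafil and from 5.32 to 5.83 in wild-type vehicle, so the wild-type vehicle arrays were on the whole the dimmest. Y-linked genes were low (mean 2.62 to 3.15) on 1 Marfan sildenafil, 2 Marfan vehicle, 1 wild-type sildenafil and 2 wild-type vehicle arrays and high (7.31 to 7.85) on the other 14. All values below are log2 values quantile-normalized over the 20 arrays. A log2 value is comparable between groups for 1 gene, not between genes.

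One library stood apart. Marfan sildenafil array 9 was the lowest of the 20 arrays for 8 of the 10 genes (13.8% of all genes had their lowest value there) and the highest for 1, Vegfb (12.4% of all genes had their highest value there). Kdr differed by -1.66 log2 units from the median of the other 19 arrays, and 0.267% of genes had a value there as low or lower relative to their own median. The difference was -1.48 for Tek, -1.30 for Flt1, -1.26 for Angpt1, -1.21 for Flt4, -1.19 for Angpt2, -0.97 for Tie1 and -0.77 for Vegfa. Vegfc (-0.28) lay within the range of the others, with rank 4 from the lowest, and Vegfb lay 0.77 above their median, 0.47 beyond the next highest array.

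The same array differed in markers of many cell types. The mean of 12 pan-endothelial genes, a list that holds none of the 10, was 8.57 on array 9 and 9.37 to 9.72 on the other 19, and 11 of the 12 were lowest there. Lists of endothelial subtypes were less uniform on that array. Lowest were 4 of 9 general capillary, 6 of 8 aerocyte capillary, 6 of 9 arterial, 4 of 7 venous and 2 of 6 lymphatic markers. Highest were 2 general capillary markers and 1 each of the aerocyte, arterial and lymphatic lists. All 10 cardiac muscle markers were lowest there (difference of the list mean from that of the other arrays -2.60 log2 units), as were 7 of 9 alveolar type 1 markers (difference -0.72) and 7 of 8 smooth muscle markers (difference -0.80). In contrast, 7 of 8 alveolar macrophage markers were highest (difference 1.68) and 7 of 7 markers of disease-associated macrophages (difference 3.63), while the alveolar type 2 markers stood close to the rest (difference 0.14). In RNA of whole lung, fewer cells of a type and less RNA per cell cannot be told apart, and the part these cell types had in the levels of the 10 genes was not tested. The main results that include the Marfan sildenafil group are therefore given with and without array 9.

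**Figure D1:**
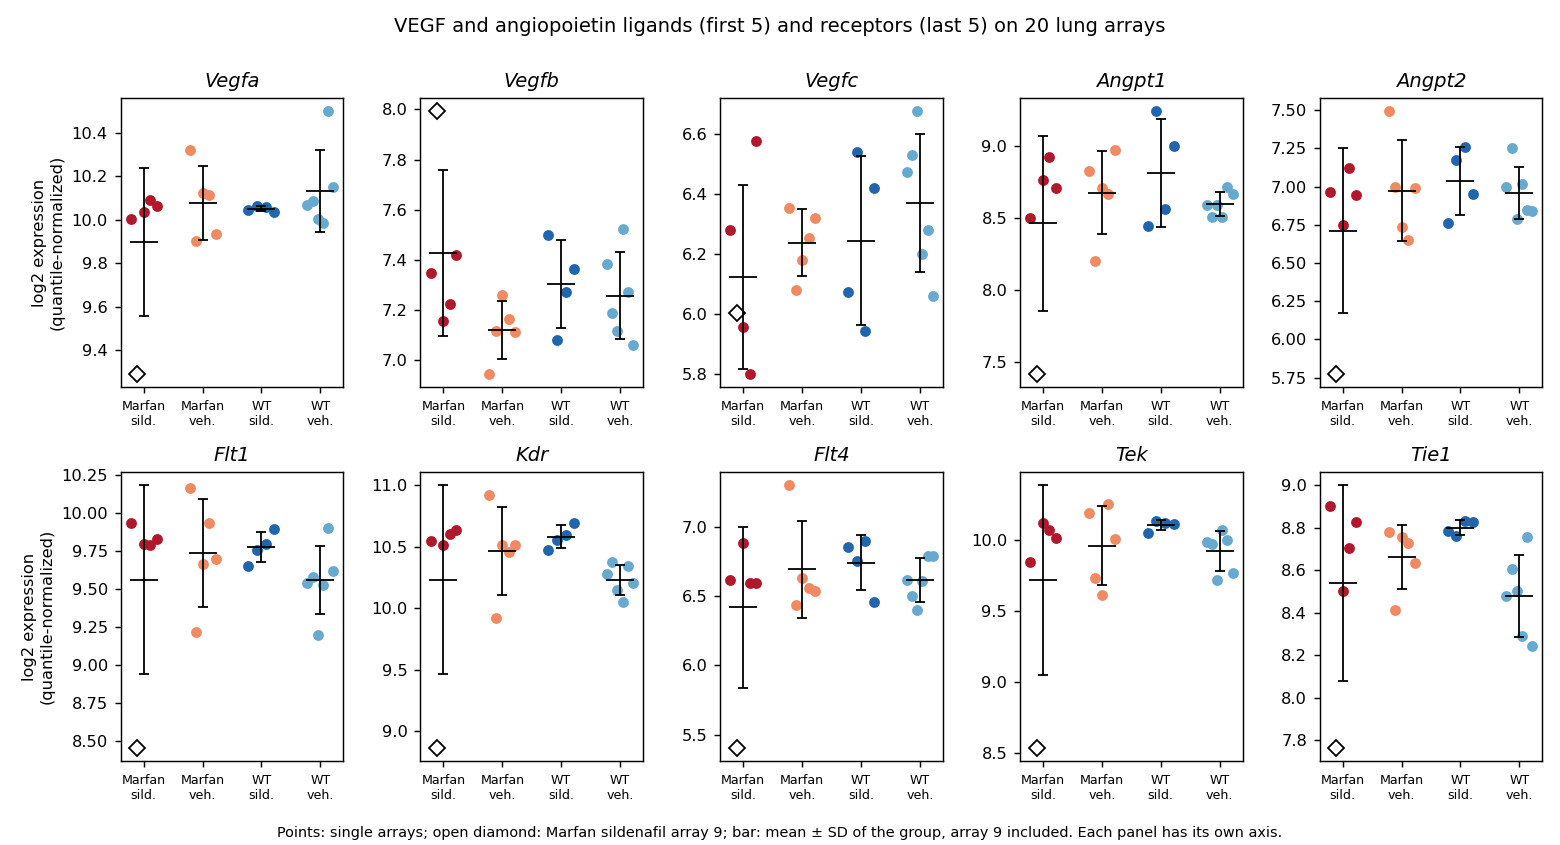
Quantile-normalized log2 expression (vertical axis) of the 10 genes on each array, with groups from left to right as Marfan sildenafil, Marfan vehicle, wild-type sildenafil and wild-type vehicle (n = 5, 5, 4 and 6). Bars are mean ± SD with array 9 included; the open diamond is array 9, at 8.86 for Kdr and 7.99 for Vegfb, and in the Kdr panel the 4 wild-type sildenafil arrays all lie above the 6 wild-type vehicle arrays.

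The group means of Vegfa lay between 9.90 and 10.13. It measured 10.00, 9.29, 10.04, 10.09 and 10.06 in the Marfan sildenafil group and 10.32, 9.90, 10.12, 10.11 and 9.93 in Marfan vehicle. In wild-type sildenafil it measured 10.05, 10.06, 10.06 and 10.04, and in wild-type vehicle it ran from 9.99 over a median of 10.08 to 10.50. The groups overlapped in every comparison, the wild-type sildenafil arrays were the tightest (SD 0.01), and array 9 was the lowest at 9.29.

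Vegfb, a ligand of VEGFR1, gave 7.35, 7.99, 7.16, 7.22 and 7.42 in Marfan sildenafil lungs and 6.94, 7.12, 7.26, 7.16 and 7.11 in Marfan vehicle lungs. The wild-type sildenafil values were 7.50, 7.08, 7.27 and 7.36, and those of wild-type vehicle ran from 7.06 over a median of 7.23 to 7.52. Marfan vehicle had the lowest mean, 7.12 ± 0.12 (SD, n = 5), and overlapped each of the other groups.

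Vegfc, the ligand of VEGFR3, stood at 6.28, 6.00, 5.96, 5.80 and 6.58 in Marfan sildenafil, and at 6.36, 6.08, 6.18, 6.25 and 6.32 in Marfan vehicle. It stood at 6.07, 6.54, 5.94 and 6.42 in wild-type sildenafil, and ran from 6.06 over a median of 6.38 to 6.68 in wild-type vehicle. The groups overlapped, with means from 6.12 in Marfan sildenafil to 6.37 in wild-type vehicle and SDs of up to 0.31.

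Angpt1, the TIE2 agonist, measured 8.50, 7.41, 8.76, 8.93 and 8.70 in Marfan sildenafil, and 8.83, 8.20, 8.71, 8.67 and 8.97 in Marfan vehicle. Wild-type sildenafil arrays gave 8.44, 9.24, 8.56 and 9.00, and wild-type vehicle arrays ran from 8.51 over a median of 8.59 to 8.71. The wild-type vehicle arrays were close together (SD 0.08), whereas the wild-type sildenafil arrays spread on both sides of them (SD 0.37).

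Angpt2, the context-dependent TIE2 ligand, measured 6.96, 5.77, 6.75, 7.12 and 6.95 in Marfan sildenafil, and 7.49, 7.00, 6.74, 6.65 and 6.99 in Marfan vehicle. It measured 6.76, 7.18, 7.26 and 6.95 in wild-type sildenafil and ran from 6.79 over a median of 6.92 to 7.25 in wild-type vehicle. Marfan vehicle held the highest array of all (array 20, 7.49), and the groups overlapped throughout.

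Among the receptors, Kdr measured 10.54, 8.86, 10.52, 10.60 and 10.64 in Marfan sildenafil lungs, and 10.92, 9.92, 10.52, 10.46 and 10.52 in Marfan vehicle lungs. It measured 10.47, 10.56, 10.60 and 10.70 in wild-type sildenafil lungs, and ran from 10.05 over a median of 10.24 to 10.38 in wild-type vehicle lungs. Of the 14 arrays of the other 3 groups, 12 lay above the highest wild-type vehicle array and the other 2, array 9 and Marfan vehicle array 21, lay below the lowest. How many of all genes reach such a count was not determined.

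Flt1, the decoy-like VEGFR1, stood at 9.94, 8.45, 9.80, 9.79 and 9.83 in Marfan sildenafil, and at 10.17, 9.22, 9.67, 9.93 and 9.70 in Marfan vehicle. It stood at 9.65, 9.76, 9.80 and 9.89 in wild-type sildenafil and ran from 9.20 over a median of 9.56 to 9.90 in wild-type vehicle. The groups overlapped in every comparison. Flt4, VEGFR3, gave 6.62, 5.40, 6.89, 6.60 and 6.60 in Marfan sildenafil and 7.31, 6.44, 6.64, 6.56 and 6.54 in Marfan vehicle. It gave 6.86, 6.76, 6.90 and 6.46 in wild-type sildenafil and ran from 6.40 over a median of 6.61 to 6.80 in wild-type vehicle. Apart from array 20 at 7.31 and array 9 at 5.40, all its values lay between 6.40 and 6.90.

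Tek, the angiopoietin receptor TIE2, measured 9.85, 8.53, 10.13, 10.07 and 10.01 in Marfan sildenafil, and 10.19, 9.74, 9.62, 10.26 and 10.01 in Marfan vehicle. It measured 10.05, 10.14, 10.12 and 10.12 in wild-type sildenafil and ran from 9.72 over a median of 9.98 to 10.08 in wild-type vehicle. The wild-type sildenafil arrays sat at the upper edge of the wild-type vehicle range, with 1 of 4 inside it. Tie1 measured 8.90, 7.76, 8.50, 8.70 and 8.83 in Marfan sildenafil, and 8.78, 8.41, 8.76, 8.73 and 8.63 in Marfan vehicle. It measured 8.78, 8.76, 8.83 and 8.83 in wild-type sildenafil and ran from 8.24 over a median of 8.49 to 8.76 in wild-type vehicle. The wild-type sildenafil arrays all lay above the wild-type vehicle arrays, though the lowest of them, 8.7595, was hardly above the highest wild-type vehicle array, 8.7585.

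In the order of group means, wild-type sildenafil came first for Angpt1, Angpt2, Flt1, Kdr, Flt4, Tek and Tie1. Wild-type vehicle came first for Vegfa and Vegfc, and Marfan sildenafil for Vegfb. For none of the 10 genes did neighbours in this order differ by more than the larger SD of the pair, and the ranges of neighbours overlapped in each case. The order itself leaned on array 9. Without it, Marfan sildenafil came first for Flt1, with a mean of 9.84 against 9.78 in wild-type sildenafil, and no longer for Vegfb, with 7.29 against 7.30. The Kdr mean of the Marfan sildenafil group was then 10.57 ± 0.05 (SD, n = 4) in place of 10.23 ± 0.77 (SD, n = 5), against 10.58 ± 0.09 in wild-type sildenafil (n = 4).

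**Figure D2:**
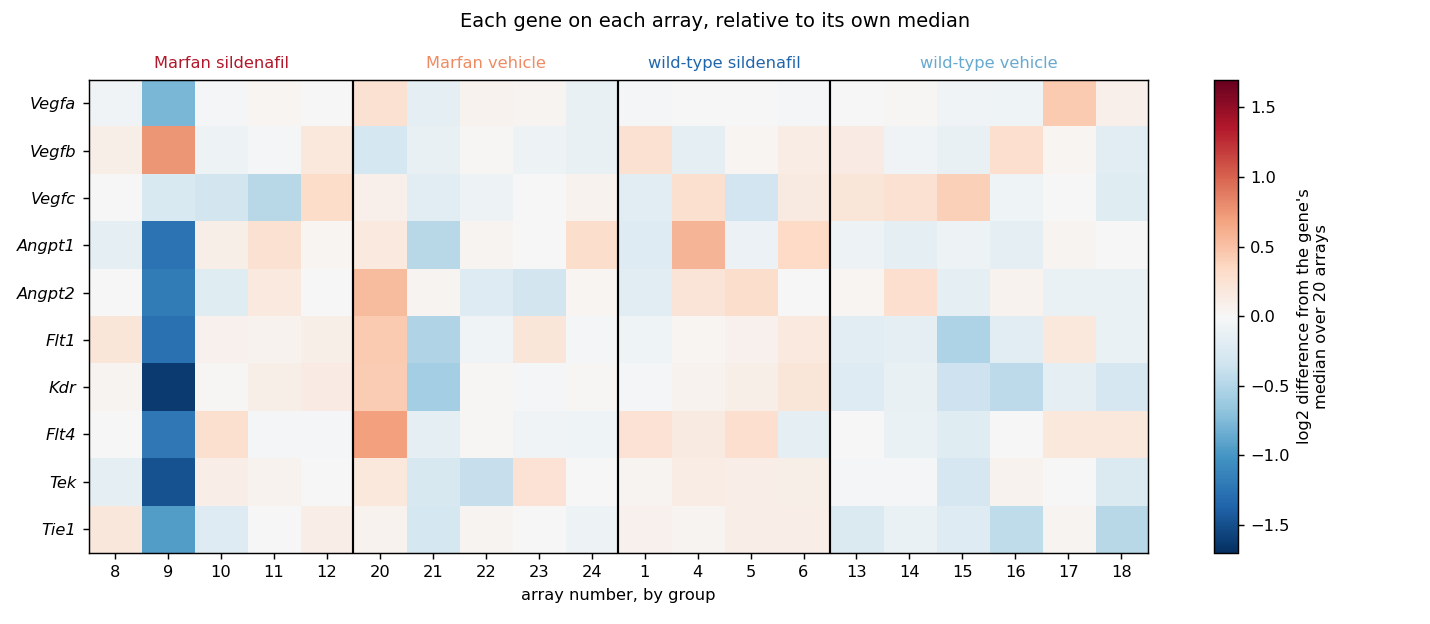
Log2 difference of each gene (rows) on each array (columns, by group) from that gene's median over the 20 arrays; red is higher, blue is lower. Array 9 is blue for every receptor and red for Vegfb, array 20 is red for Flt1, Kdr and Flt4, and the wild-type vehicle arrays 13 to 18 are blue for Kdr.

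Marfan lungs were first set against wild-type lungs under vehicle, the comparison of genotypes in the absence of the drug. Kdr stood higher in Marfan vehicle lungs by 0.23 ± 0.22 log2 units (SE), Tie1 by 0.18 ± 0.15 and Flt1 by 0.17 ± 0.20. The receptors Flt4 and Tek differed by 0.08 ± 0.20 and 0.04 ± 0.19, and the ligands Angpt1 and Angpt2 by 0.08 ± 0.19 and 0.02 ± 0.19. Vegfa, Vegfb and Vegfc stood lower, with differences of -0.05 ± 0.12, -0.14 ± 0.13 and -0.13 ± 0.15. The signs were 7 higher and 3 lower, with a median of 0.06 against 0.00 for all genes. None of the 10 passed limma's moderated test (adjusted p 0.852 to 0.995 over all genes, 5 against 6 arrays), and 0 of 19505 genes did (0%). An unadjusted p under 0.05 was found for 0 members and for 6.26% of genes. All 10 genes overlapped between the groups, against 0.528% of genes that did not. For Kdr the 95% confidence interval of the difference ran from -0.22 to 0.69. The sizes hung on single Marfan vehicle arrays: without array 20 Kdr differed by 0.12 and Flt1 by 0.07, and without array 21 by 0.37 and 0.30. Flt4, at 0.08 with all arrays, was at -0.08 without array 20, and Tek, at 0.04, was at -0.03 without array 23. The pan-endothelial mean was 9.58 ± 0.08 in Marfan vehicle and 9.46 ± 0.08 in wild-type vehicle lungs (SD, n = 5 and 6). With that mean as a covariate, in a fit that kept array 9, the differences were 0.02 for Kdr, 0.06 for Tie1 and -0.0026 for Flt1. In the fit without the covariate, array 9 enters this comparison only through the shared estimate of spread. With array 9 left out of that fit, Kdr had an unadjusted limma p of 0.0412 and an adjusted p of 0.633. It was the 1 of 10 members below 0.05 before adjustment, against 7.81% of genes, and 0.0103% of genes passed after adjustment.

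Sildenafil in Marfan mice was compared with vehicle in Marfan mice. With all arrays, 9 of 10 genes stood lower and 1, Vegfb, stood higher, and the median was -0.20 (all genes -0.01). The Kdr difference was -0.23 ± 0.23 (SE; 95% confidence interval -0.71 to 0.24) and that of Tek -0.24 ± 0.20. Without array 9 the count was 6 higher and 4 lower, the median was 0.05, and the Kdr and Tek differences were 0.11 ± 0.12 and 0.05 ± 0.11. None of the 10 passed with array 9 (limma, adjusted p 0.725 to 0.930; 0% of genes passed) or without it (lowest adjusted p 0.829; 0% of genes). Vegfb, at a difference of 0.31 ± 0.14 (SE), had a limma p of 0.0317 before adjustment and 0.725 after it. It was the 1 member of 10 below 0.05 before adjustment, against 6.71% of genes, and its difference was 0.17 ± 0.12 without array 9. All 10 genes overlapped between the groups (0.877% of genes did not).

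In wild-type mice, every sildenafil array had a higher Kdr and Tie1 level than every vehicle array, and neither gene passed the test. Kdr averaged 10.58 ± 0.09 (SD, n = 4) in wild-type sildenafil lungs and 10.23 ± 0.12 (n = 6) in wild-type vehicle lungs, a difference of 0.35 ± 0.23 (SE) with a limma adjusted p of 0.689. Tie1 averaged 8.80 ± 0.04 (SD, n = 4) in wild-type sildenafil and 8.48 ± 0.19 (n = 6) in wild-type vehicle lungs, a difference of 0.32 ± 0.16 (SE; unadjusted p = 0.0487, adjusted p = 0.547 by limma). Angpt1, Flt1 and Tek stood 0.22 ± 0.21, 0.21 ± 0.21 and 0.19 ± 0.21 higher, where the Angpt1 value was 0.07 without wild-type sildenafil array 4 and 0.34 without array 1. Vegfa and Vegfc differed by -0.08 ± 0.13 and -0.13 ± 0.16. In all 8 genes were higher and 2 lower (median 0.16, all genes 0.00), 0 passed (0% of genes passed), and 1 had an unadjusted p under 0.05 against 9.1% of genes. The 2 genes whose groups did not overlap, Kdr and Tie1, compare with 1.42% of all genes that lay wholly higher in wild-type sildenafil.

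The spread in that test is shared by all 4 groups, so array 9 widened it. Without array 9 the same differences had smaller standard errors, 0.12 for Kdr and 0.10 for Tie1, with unadjusted limma p-values of 0.00597 and 0.0047 and adjusted p-values of 0.254 and 0.239. These 2 of 10 members compare with 11.1% of genes below 0.05, and 0% of genes passed after adjustment. The same comparison ran along with array brightness and with endothelial markers: the pan-endothelial list had a mean of 9.66 ± 0.04 in wild-type sildenafil and 9.46 ± 0.08 in wild-type vehicle (SD, n = 4 and 6), with 10 of its 12 genes higher. With the deposited median of each array as a covariate the Kdr difference was 0.06 and the Tie1 difference 0.08. The pan-endothelial mean as a covariate gave -0.02 and 0.11. Both of these fits kept array 9, and values without it are not given here. Over the other 19 arrays, with group means removed, brightness had r = -0.21 with Kdr and 0.14 with Tie1. The pan-endothelial mean had r = 0.64 and 0.49. On the deposited values, where the median gene was 0.28 higher, the Kdr and Tie1 differences were 0.60 and 0.65. All 4 wild-type sildenafil arrays were brighter than all 6 wild-type vehicle arrays, so that within these 10 arrays brightness and treatment cannot be told apart.

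**Figure D3:**
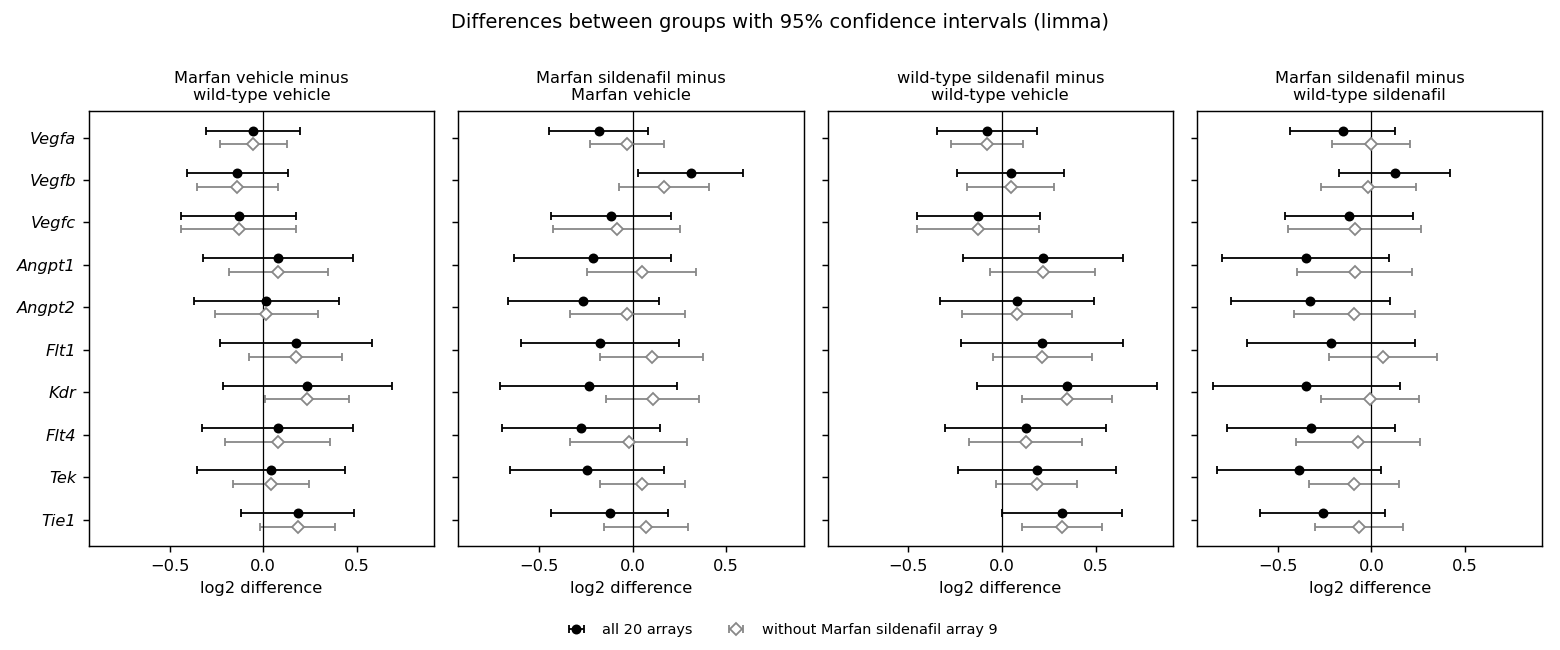
Log2 differences between groups for the 10 genes with 95% confidence intervals from limma, for Marfan vehicle minus wild-type vehicle, Marfan sildenafil minus Marfan vehicle, wild-type sildenafil minus wild-type vehicle and Marfan sildenafil minus wild-type sildenafil. Filled points use all 20 arrays and open diamonds leave out array 9; in both comparisons that use the Marfan sildenafil group most filled points lie left of 0 and the diamonds lie close to 0, for Kdr at 0.11 and -0.01.

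Marfan lungs were also compared with wild-type lungs under sildenafil. With all arrays 9 of 10 genes stood lower in Marfan sildenafil lungs, by a median of -0.29 (all genes 0.00), led by Tek at -0.39 ± 0.21, Angpt1 at -0.35 ± 0.22 and Kdr at -0.35 ± 0.24 (SE). Without array 9 the count was 1 higher and 9 lower too, but the higher gene was Flt1 (0.06) and no longer Vegfb (0.12 with array 9, -0.02 without it), the median was -0.07 and the Kdr difference -0.01 ± 0.13. None passed with array 9 (limma adjusted p 1.00 for each; 0% of genes passed) or without it (0% of genes), 0 had an unadjusted p under 0.05 against 3.89% of genes, and all 10 overlapped (1.43% of genes did not).

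The interaction asked whether the difference made by sildenafil was the same in Marfan and in wild-type mice. It was negative for 8 genes and positive for 2, with a median of -0.40 (all genes 0.00), and largest in size for Kdr at -0.58 ± 0.33 and Tie1 at -0.44 ± 0.22 (SE; limma adjusted p = 0.984 for both). Without array 9 the values were -0.24 ± 0.17 for Kdr and -0.25 ± 0.15 for Tie1, with 7 negative and 3 positive and a median of -0.12. In this comparison 0 genes of the 10 passed with or without array 9 (0% of genes in both), and 0 had an unadjusted p under 0.05 against 4.47% of genes.

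Averaged over genotypes, sildenafil lungs differed from vehicle lungs by 0.06 ± 0.16 in Kdr and 0.10 ± 0.11 in Tie1 (SE), with 5 genes higher and 5 lower, 0 passing (0% of genes) and 0 with an unadjusted p under 0.05 (10.9% of genes). Leaving out array 9 gave 0.23 ± 0.08 for Kdr and 0.20 ± 0.08 for Tie1, with unadjusted limma p-values of 0.0115 and 0.0144 and adjusted p-values of 0.217 and 0.239. Then 8 of 10 genes were higher, 2 of 10 had an unadjusted p under 0.05 against 13% of genes, and 0 passed, against 0.379% of genes. Averaged over treatments, 10 of 10 genes were lower in Marfan lungs with all arrays (median -0.11, all genes -0.01) and 6 of 10 without array 9 (median -0.02). In that comparison 0 passed by limma (0% of genes with and without array 9), and 0 had an unadjusted p under 0.05 against 5.35% of genes.

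Balance within each signalling pair was followed as 1 value per array. The log2 difference of Angpt2 and Angpt1 and that of Flt1 and Kdr show whether a pair changed unequally between groups, not which gene is more abundant. The 8 exact two-sided permutation tests of group means gave a smallest p of 0.198 (adjusted p = 0.838 over the 8), for Flt1 minus Kdr in Marfan sildenafil against wild-type sildenafil lungs, a shift of 0.13 with all arrays and 0.07 without array 9. For Angpt2 minus Angpt1 the shift was 0.03 in that comparison, -0.05 in Marfan sildenafil against Marfan vehicle, -0.14 in wild-type sildenafil against wild-type vehicle and -0.06 in Marfan vehicle against wild-type vehicle. On array 9 both genes of each pair were low together.

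Across arrays, the receptor genes Flt1, Kdr and Tie1 varied together. Correlations were taken over the 19 arrays other than array 9, with permutation p-values (100000 resamples) adjusted over 65 relations, and 3 of the 45 pairs among the 10 genes passed by both Pearson's r and Spearman's rho. All 3 were pairs of receptors. How many pairs of other genes pass the same rule on these arrays was not determined, so the count describes these genes only. Flt1 with Kdr gave r = 0.85 (permutation p = 1e-05, the smallest these resamples can give; adjusted 0.00065) and rho = 0.73 (permutation p = 0.0007, adjusted 0.0109). Kdr with Tie1 gave r = 0.78 and rho = 0.79 (permutation p = 0.00013 for each, adjusted 0.00303 and 0.00845). Flt1 with Tie1 gave r = 0.66 (permutation p = 0.00185, adjusted 0.024) and rho = 0.71 (permutation p = 0.00084, adjusted 0.0109). These relations held without the 2 arrays farthest from the median of the first gene (r = 0.77, 0.69 and 0.64) and after each group's mean was removed (r = 0.81, 0.62 and 0.56).

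Flt1 with Tek (r = 0.63, permutation p = 0.00431, adjusted 0.04; rho = 0.56, permutation p = 0.0151, adjusted 0.122) and Kdr with Angpt1 (r = 0.61, permutation p = 0.00606, adjusted 0.0492; rho = 0.57, permutation p = 0.0117, adjusted 0.109) passed by r alone. Both had r = 0.41 without the 2 arrays farthest from the median of the first gene, and r = 0.60 and 0.56 with group means removed. The pan-endothelial mean of the same array followed Kdr (r = 0.75, permutation p = 0.00014, adjusted 0.00303; rho = 0.76, permutation p = 0.00026, adjusted 0.00845) and Tie1 (r = 0.72, permutation p = 0.00044, adjusted 0.00715; rho = 0.74, permutation p = 0.00045, adjusted 0.00975). Without the 2 farthest arrays r was 0.70 and 0.63, and with group means removed it was 0.64 and 0.49. With the same mean, Vegfa had r = 0.21 (permutation p = 0.4, adjusted 0.627; rho = 0.14, permutation p = 0.571, adjusted 0.889) and Vegfb r = 0.15 (permutation p = 0.544, adjusted 0.68; rho = 0.11, permutation p = 0.652, adjusted 0.904). With group means removed, however, Vegfa had r = 0.67 with the endothelial mean, no lower than Kdr and Tie1, and Vegfb had r = 0.24. Array brightness gave r = 0.55 with Tie1 (permutation p = 0.0156, adjusted 0.0922; rho = 0.50, permutation p = 0.0305, adjusted 0.18), which did not pass.

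**Figure D4:**
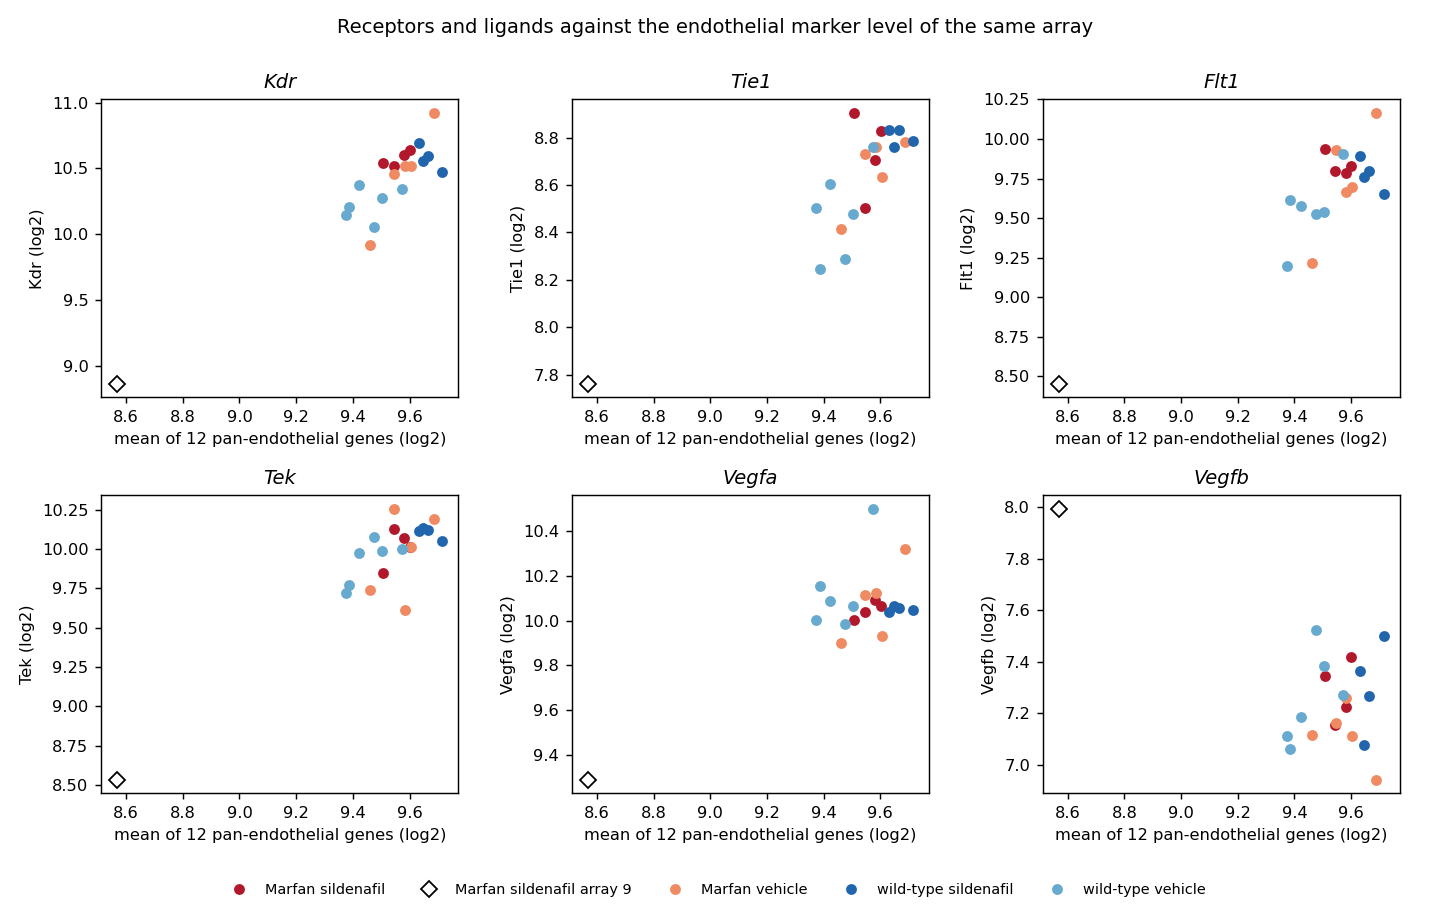
Log2 level of 4 receptor and 2 ligand genes (vertical axes) against the mean log2 level of 12 pan-endothelial genes on the same array (horizontal axis), 20 arrays coloured by group. Kdr and Tie1 climb with the endothelial mean (r = 0.75 and 0.72 over the 19 arrays other than array 9), Vegfa and Vegfb show r = 0.21 and 0.15, r with group means removed is 0.64, 0.49, 0.67 and 0.24 for Kdr, Tie1, Vegfa and Vegfb, and array 9, the open diamond at 8.57, lies apart in every panel.

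The genes whose pattern over the 20 arrays was most like each member were found by Spearman's rho among 9580 of the brighter 9752 genes, predicted and RIKEN genes being left out, as a description; the closest of so many have a high rho by selection alone. For Kdr they were Bmpr2 (rho 0.94), the type II BMP receptor, Cdh5 (0.93), the endothelial adhesion molecule VE-cadherin, and Pdgfrb (0.93), the PDGF receptor of pericytes. For Tie1 they were Myo10 (0.94), Akap12 (0.89) and Cdh5 (0.87), for Flt1 Pxdn, Lifr and Prrc2c (0.93 each), and for Tek Kctd6 (0.94), Asap1 (0.84) and Adgrg6 (0.78). Without array 9 the lowest of these 12 values was 0.75. Flt4 was most like Pcdhb17 (0.82), Elapor2 (0.80) and Slc12a4 (0.78). Among the ligands, Angpt1 was most like Cdo1 (0.83), Gria1 (0.81) and Itga2b (0.77), and Vegfa like Ehmt1 (0.81), Ercc4 (0.80) and Il17rd (0.78). Vegfb was most like Thoc5 (0.80), Mfsd13a (0.78) and Tmem98 (0.76), Vegfc like Nudt6 (0.76), Mmut (0.75) and Bclaf1 (0.72), and Angpt2 like Igsf10 (0.76), Acadsb (0.71) and Kdm6a (0.71).

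The wider pathway was read from 7 lists with 109 measured genes. The lists were fixed with earlier results of these data known, so the shares below describe these genes and are no independent support. Of the 109, 0 passed limma's test in any of the 7 comparisons with all arrays. Without array 9, 1 of the 109 passed in 1 comparison, Dll4 for sildenafil averaged over genotypes, where 0.379% of all genes passed. An unadjusted limma p under 0.05 was found for 21 of the 109 in wild-type sildenafil against wild-type vehicle lungs (19.3%, against 9.1% of all genes), the comparison in which array brightness and endothelial markers also differed. It was found for 8 (7.34%, against 6.26% of all genes) when Marfan vehicle lungs were set against wild-type vehicle lungs, for 12 in the interaction (11.0%, against 4.47%) and for 14 in sildenafil averaged over genotypes (12.8%, against 10.9%). In each of the other 3 comparisons it was found for 7 (6.42%), against 6.71% of all genes in Marfan sildenafil against Marfan vehicle, 3.89% in Marfan sildenafil against wild-type sildenafil and 5.35% for genotype averaged over treatments. Without array 9 the count was 8 in the interaction (7.34%, against 4.33%) and 21 in averaged sildenafil (19.3%, against 13%). It was then 25 in wild-type sildenafil against wild-type vehicle lungs (against 11.1% of all genes) and 10 in Marfan vehicle against the same lungs (against 7.81%). It was 6 in each comparison of Marfan sildenafil, with Marfan vehicle (against 6.87%) and with wild-type sildenafil (against 3.22%), and 8 for averaged genotype (against 5.13%). A list of other VEGF, neuropilin and PDGF-C gene symbols had 4 of 6 measured, namely Pgf, Vegfd, Nrp2 and Pdgfc, so Nrp1 was not among them. Pgf, placental growth factor, a VEGFR1 ligand, stood at 5.31 ± 0.31 in wild-type sildenafil and 5.68 ± 0.19 in wild-type vehicle lungs (SD, n = 4 and 6). Pgf thus differed by -0.38 ± 0.18 (SE, limma adjusted p = 0.524). In Marfan vehicle it differed from the same wild-type vehicle arrays by -0.32 ± 0.17. Nrp2, a VEGF co-receptor, differed by 0.27 ± 0.20 and 0.26 ± 0.19 in these comparisons.

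Of 16 partners and inhibitors of TIE2 and the VEGF receptors, 11 were higher and 5 lower both in Marfan vehicle and in wild-type sildenafil lungs against the shared wild-type vehicle arrays, with medians of 0.08 and 0.11. Ptprj, a receptor phosphatase that acts on VEGFR2, averaged 9.16 ± 0.19 in Marfan vehicle (SD, n = 5), 9.11 ± 0.13 in wild-type sildenafil (n = 4) and 8.77 ± 0.05 in wild-type vehicle (n = 6). The differences were 0.39 ± 0.09 and 0.35 ± 0.10 (SE; limma adjusted p = 0.532 and 0.361), and every array of both groups lay above the highest wild-type vehicle array, 8.84. Such a gap was found for 0.261% of all genes in Marfan vehicle and 1.42% in wild-type sildenafil, Ptprj was named for the smallest p of its list, and both comparisons share the wild-type vehicle arrays. Cd93 and Robo4, endothelial surface proteins, stood 0.33 ± 0.11 and 0.36 ± 0.15 higher in wild-type sildenafil than in wild-type vehicle lungs. Of 23 genes of VEGF receptor signal transduction, 16 were higher and 7 lower in that comparison (median 0.15), led by Bcar1, an adaptor of focal adhesions, at 0.38 ± 0.13 and Prkca, a protein kinase C, at 0.47 ± 0.18.

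Of 21 VEGF-induced and tip cell genes, 16 were higher and 5 lower in wild-type sildenafil against wild-type vehicle lungs (median 0.08), and 12 higher and 9 lower in Marfan vehicle lungs against the same wild-type vehicle lungs (median 0.01). Pdgfb, the endothelial ligand that recruits pericytes, averaged 8.38 ± 0.28 in wild-type sildenafil and 7.80 ± 0.20 in wild-type vehicle lungs (SD, n = 4 and 6), a difference of 0.59 ± 0.17 (SE; limma adjusted p = 0.361). Nr4a1, an early response gene, differed by 0.65 ± 0.28 in the same comparison. Dll4, a Notch ligand of tip cells, averaged 9.38 ± 0.53 in Marfan sildenafil and 9.27 ± 0.22 in Marfan vehicle lungs (SD, n = 5 each), and 9.57 ± 0.10 in wild-type sildenafil (n = 4) and 9.12 ± 0.26 in wild-type vehicle lungs (n = 6). Averaged over genotypes its sildenafil difference was 0.28 ± 0.13 (SE, limma adjusted p = 0.419). Without array 9, at 8.45 the lowest array of its group, the difference was 0.40 with a limma adjusted p of 0.0344. In that setting 0.379% of all genes passed, and the Marfan sildenafil mean of Dll4 was 9.61 ± 0.12 (SD, n = 4). Esm1, the tip cell gene of endocan, averaged 6.28 ± 0.42 in Marfan sildenafil and 5.97 ± 0.35 in Marfan vehicle lungs (SD, n = 5 each; 6.45 ± 0.21 in Marfan sildenafil without array 9), against 6.94 ± 0.21 in wild-type sildenafil (n = 4) and 6.93 ± 0.45 in wild-type vehicle lungs (n = 6). Marfan vehicle arrays, at most 6.29, all lay below wild-type vehicle arrays, at least 6.44 (0.267% of all genes lay wholly lower), and the difference was -0.96 ± 0.21 (SE; limma adjusted p = 0.503, and 0.0933 without array 9).

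Endothelial FOXO1 and TIE2 target genes showed no common direction, with 4 of 12 higher in Marfan vehicle and 7 of 12 higher in wild-type sildenafil lungs, each against wild-type vehicle (medians -0.04 and 0.00). Hypoxia response genes, 10 higher and 9 lower in each of these comparisons, had medians of 0.00 and 0.03. Car9, a carbonic anhydrase induced by low oxygen, stood 0.53 ± 0.19 higher in Marfan vehicle than in wild-type vehicle lungs (SE, limma adjusted p = 0.789). Car9 was dim, with means of 4.77 ± 0.32 and 4.24 ± 0.32 in these groups (SD, n = 5 and 6). Bnip3, a mitochondrial protein, differed by -0.31 ± 0.10 between Marfan sildenafil and Marfan vehicle lungs (SE, limma adjusted p = 0.677), and by -0.34 without array 9. Of 14 lymphatic and VEGF-C pathway genes, 12 were higher and 2 lower in wild-type sildenafil against wild-type vehicle lungs (median 0.09), with Mmrn1, a lymphatic marker, at 0.52 ± 0.21 and Ccbe1, which aids VEGF-C processing, at 0.35 ± 0.15. In Marfan sildenafil against wild-type sildenafil lungs 4 were higher and 10 lower (median -0.17), with Sox18 at -0.46 ± 0.15 and Lyve1 at -0.57 ± 0.21, and without array 9 the counts were the same, the median was -0.08 and these differences were -0.29 and -0.34. All-gene medians in these comparisons lay between -0.01 and 0.00.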

How the data were processed

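RNA of whole lung was labelled from 700 pg per sample with the GeneChip Pico kit, after a check for an RNA integrity number above 8.5, per the labels' protocols. The authors deposited log2 values from RMA (Affymetrix Expression Console), per the submitters' processing notes; no version is stated. The labels' treatment text names sildenafil for all samples, so groups were taken from the titles. The table has 24 columns; 4 of them are empty and were left out, being samples whose titles say that they did not pass quality control (1 Marfan sildenafil, 1 Marfan vehicle, 2 wild-type sildenafil). The labels state 6 planned per group but do not tie each array to a separate animal, give no batch and no sex, so p-values reflect only how much these samples vary.

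From 29129 entries, 6923 controls were removed; of 22206 probe sets, 19572 had 1 symbol in the platform annotation, 2634 had none and 0 had several. The probe set with the highest mean stood for each of 19505 genes. Values were quantile-normalized over the 20 arrays. The 4 groups were fitted together in limma 3.58.1 (R 4.3.3; eBayes with a variance trend, two-sided, 16 residual degrees of freedom), with Benjamini-Hochberg adjustment over all genes in each of 7 comparisons and a threshold of 0.05. The code was tested on simulated data. Precision was limited by the number of arrays, with a median standard error over genes of 0.16 to 0.18 log2 units in the pairwise comparisons.

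All 10 members were named, with up to 3 genes of each pathway list by smallest p per comparison and the 3 genes most like each member. The members and lists were chosen with earlier results of these data known. Alternatives were the deposited values, median centring, array weights, a filter on dim genes, no variance trend, covariates for brightness, Y-linked level and endothelial level, all probe sets of a gene, only the groups compared, and each array left out.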

Additional observations from a re-analysis of the deposited data

Results flagged for a closer look

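In 9 of the 40 combinations of gene and group (22.5%) the highest or lowest array lay far from its neighbours by Dixon's test. That test would mark about 1 in 20 of independent, normally distributed sets. The 40 combinations are not independent, because the 10 genes share the same arrays. The share marked among all genes was not determined, so the count is not a result about these genes. Marfan sildenafil array 9 accounts for 7 of them, as the lowest of its group for Kdr at 8.86 (nearest other array 10.52), Tek at 8.53 (9.85), Flt1 at 8.45 (9.79), Angpt1 at 7.41 (8.50), Angpt2 at 5.77 (6.75), Flt4 at 5.40 (6.60) and Vegfa at 9.29 (10.00). Flt4 on Marfan vehicle array 20 was the highest of its group at 7.31 (nearest 6.64). Vegfa on wild-type vehicle array 17 was the highest of its group at 10.50 (nearest 10.15).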

How the results depend on the processing

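No member passed under any of the 11 alternatives or with any of the 20 arrays left out. Leaving out array 9 is counted in both sets. The use of all probe sets of a gene left the members' own values unchanged, because each had 1. The lowest adjusted limma p of a member was 0.0969 on the deposited values (Tie1, wild-type sildenafil against wild-type vehicle), 0.118 with only the groups compared, 0.217 without array 9, 0.225 with array weights and 0.265 with the pan-endothelial covariate. Of 70 differences (10 genes in 7 comparisons) the sign turned for 36 with the pan-endothelial covariate, 21 on the deposited values, 15 without array 9, 13 with the brightness covariate, 11 with array weights, 6 with median centring and 2 with the Y-linked covariate; none of these differences was a call, and the cause was not tested. Calls among all genes, summed over the 7 comparisons, numbered 0 in the main setting, 173 with the pan-endothelial covariate, 76 without array 9, 74 with array weights, 10 on the deposited values, 10 among the brighter 9752 genes, and 25, 3 and 1 without arrays 10, 17 and 24. On the deposited values the median gene shifted by 0.25 in Marfan vehicle against wild-type vehicle, 0.28 in wild-type sildenafil against wild-type vehicle, -0.24 in the interaction, 0.16 for averaged sildenafil and 0.13 for averaged genotype; with median centring the first 3 shifts were -0.13, -0.12 and 0.13.

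Without array 9, Angpt2 minus Angpt1 in Marfan sildenafil against wild-type sildenafil was -0.0015, and Flt1 minus Kdr in Marfan sildenafil against Marfan vehicle was -0.0056. With 1 array left out at a time, Angpt2 minus Angpt1 ran from -0.187 to 0.0156 in Marfan vehicle against wild-type vehicle, from -0.127 to 0.0758 in Marfan sildenafil against Marfan vehicle and from -0.0711 to 0.182 in Marfan sildenafil against wild-type sildenafil, and Flt1 minus Kdr from -0.0056 to 0.11 in Marfan sildenafil against Marfan vehicle. No paired analysis was possible because the array numbers run on over the groups and no number is shared.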
